A study of Mus musculus with 14 samples.

Results

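Matrix proteases cut the proteins of the extracellular matrix and of the cell surface, and their inhibitors hold that cutting in check. A list of 34 such genes was read here, made of matrix metalloproteinases (Mmp), tissue inhibitors of metalloproteinases (Timp) and the membrane inhibitor Reck, membrane proteins of the ADAM family, secreted proteases of the ADAMTS family, the serine proteases Htra1 and Htra3, and the procollagen protease Bmp1. The genes were chosen by name, with earlier results of these data known. Each was read from its probe of highest mean among the probes assigned to that gene alone. With this rule 32 of the 34 genes had a value, out of 19938 genes in all, and Mmp15 and Adamts2 were not analysed here.

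The values came from liver of female mice aged 14 months, taken from tissue without tumour in the knockouts. The groups were 6 arrays from mice lacking both Mdr2 and IL6 (Mdr2-KO/IL6-KO), 5 arrays from mice lacking Mdr2 (Mdr2-KO) and 3 arrays from wild-type C57BL/6 mice. The strain of the knockouts was not in the labels, so strain and genotype cannot be told apart, and Mdr2 loss was common to both knockout groups. The labels do not state that each array was a separate mouse, so each p-value below reflects only how much arrays varied within groups. In the main fit that spread was estimated from all 3 groups together. An array of the group outside a comparison can therefore also change its p-values. Mdr2 is now called Abcb4, a transporter that moves phosphatidylcholine into bile, and its loss exposes bile ducts to unbuffered bile acids. Il6 encodes interleukin 6, a cytokine that signals to hepatocytes through STAT3.

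Metalloproteinases are made as inactive precursors and cut collagens, elastin, basement membrane and surface proteins once activated, and TIMP proteins block them by binding the active site. In injured liver, scar-forming stellate cells are a known source of Mmp2 and Timp1, macrophages of Mmp12, neutrophils of Mmp8 and Mmp9, and bile duct epithelium of Mmp7. ADAM proteases release growth factors and receptors from membranes, and ADAMTS proteases cut proteoglycans or trim procollagens.

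All values are deposited log2 signals, so 1 unit is a doubling. Array medians lay between 6.15 and 6.24. A signal of 5.48, under which 95% of 1027 olfactory receptor genes lay, served as the background of the array. Signals of different genes come from different probes and were not set against each other. Abcb4 averaged 9.05 ± 0.20 in Mdr2-KO/IL6-KO, 9.01 ± 0.19 in Mdr2-KO and 10.36 ± 0.03 in wild type (SD), and every knockout array was below every wild-type array. Il6 was under the background on all 14 arrays, so its loss could not be read. The mean signal of 6 hepatocyte markers was 12.59 to 12.85 in Mdr2-KO/IL6-KO, 12.7 to 12.87 in Mdr2-KO and 12.63 to 12.72 in wild type. A pair of arrays stood apart by neutrophil genes: all 12 neutrophil markers listed were highest of their group in Mdr2-KO/IL6-KO array 2 and in Mdr2-KO array 3, where the mean signal of the list was 8.13 and 8.87, against 6.15 to 6.52 in every other array. These are called the neutrophil-high arrays below, and each call of a listed gene that ended or was gained without both of them is given. Fold changes below carry their standard error (SE) and an adjusted p from limma with Benjamini-Hochberg adjustment over all 19938 genes, and a gene was called at an adjusted p under 0.05.

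Livers lacking both Mdr2 and IL6 had higher signal than wild type for 15 of the 32 genes, and none was called lower (limma), where 2 of the 32 were lower at an unadjusted p under 0.05. The called genes were Mmp2, Mmp7, Mmp12, Mmp14 and Mmp23, the inhibitors Timp1 and Timp2, the membrane proteins Adam8, Adam15 and Adam23, the secreted Adamts5, Adamts9 and Adamts12, and Htra1 and Htra3. The macrophage elastase Mmp12 had the largest difference of the list, 2.71 log2 units, and the gelatinase Mmp2 differed by 1.55. The 15 called higher were 46.9% of the list, where 6.96% of all genes were called higher, 5.33% lower and 12.3% in either direction. Of the 32, 2 had a mean under the background, where 29% of all genes did. With only the 13292 genes of highest mean signal tested, 16 of 29 listed genes and 1538 of all were called higher. For 16 of the 32 all 6 knockout arrays lay above all 3 wild-type arrays, a separation that 8.57% of all genes showed, or 15.1% counting both directions. The median difference was 0.37 over the list and -0.02 over all genes. Of all genes 1388 were called higher and 1062 lower, a split that became 1006 and 1573 once each array was centred on its median. The count of 15 fell to 7 without wild-type array 1, and was between 11 and 15 without any other single array.

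Livers lacking Mdr2 alone had higher signal than wild type for 10 of the 32 genes and lower signal for Adam12. The 10 were Mmp2, Mmp7, Mmp12, Mmp14, Mmp23, Timp2, Adam23, Adamts5, Adamts9 and Htra3, and all 10 were also called higher in Mdr2-KO/IL6-KO. Mmp12 again had the largest difference, 2.05 log2 units, followed by the epithelial protease Mmp7 at 1.72. The 10 called higher were 31.2% of the list, where 8.89% of all genes were called higher, 12.1% lower and 21% in either direction. With only the 13292 genes of highest mean signal tested, 12 of 29 listed genes and 1841 of all were called higher. In 12 of the 32 all Mdr2-KO arrays lay above all wild-type arrays, where 10.3% of all genes did so, and none of the 32 had all Mdr2-KO arrays below all wild-type arrays, where 13.2% of all genes did (23.5% in either direction). The median difference was 0.31 over the list and -0.07 over all genes. The count of 11 calls fell to 5 without wild-type array 3 and to 7 without wild-type array 1, Mdr2-KO array 1 or Mdr2-KO array 4, and without any other single array it was between 8 and 12. Both comparisons use the same 3 wild-type arrays, so their calls are not independent of each other.

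Lymphocyte markers were lower in the knockouts in the same comparisons. The mean signal of 8 T and NK cell markers was 5.72 to 6.17 in Mdr2-KO/IL6-KO, 5.73 to 6.12 in Mdr2-KO and 6.27 to 6.89 in wild type, without overlap with wild type. Called lower were Cd3e, Cd3g, Nkg7, Gzma and Gzmb in Mdr2-KO/IL6-KO (5 of 8) and Cd3g, Gzma and Gzmb in Mdr2-KO (3 of 8), while Gzma and Klrb1c had means under the background. The mean of 5 B and plasma cell markers overlapped between the groups, at 5.95 to 6.66 in Mdr2-KO/IL6-KO, 6.06 to 6.64 in Mdr2-KO and 6.37 to 7.24 in wild type. Ms4a1 and Cd79b were called lower in both knockout groups, and Ms4a1 had a mean under the background. Without wild-type array 2 the Mdr2-KO/IL6-KO calls of Cd3e, Cd3g, Nkg7, Gzmb, Ms4a1 and Cd79b and the Mdr2-KO calls of Cd3g and Ms4a1 ended (adjusted p between 0.0547 and 0.215). Of these 8 calls, all but those of Nkg7 and of Cd3g in Mdr2-KO also ended without at least 1 of Mdr2-KO/IL6-KO array 1, 2, 3, 4 or 6, Mdr2-KO array 2 and wild-type array 1 or 3 (adjusted p between 0.051 and 0.158). The part of lymphocyte number in the results for the listed genes was not tested.

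**Figure D1:**
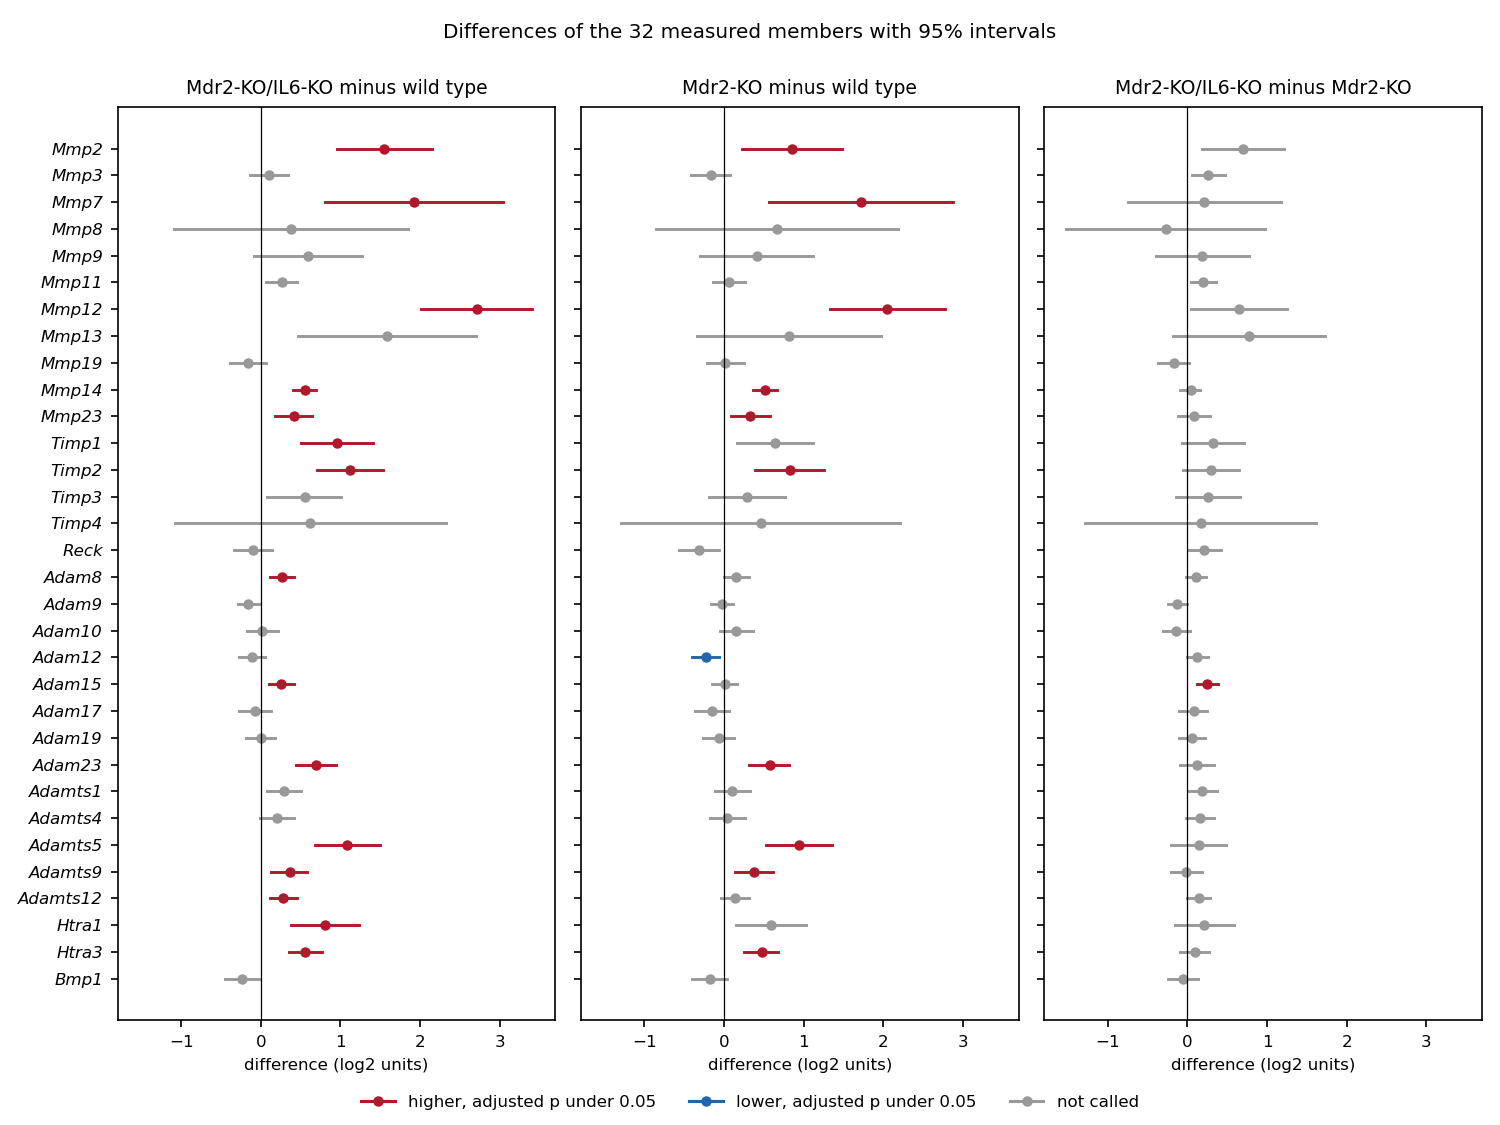
Difference in log2 signal (x axis, log2 units) with its 95% confidence interval for the 32 measured genes (y axis, grouped by role), in the 3 comparisons, with genes called higher in red and lower in blue. Against wild type the points of Mmp12, Mmp7, Mmp2, Adamts5 and Timp2 lie farthest to the right among the called genes, while between the knockouts Adam15 alone is called, at 0.25.

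Among the secreted metalloproteinases 9 of 9 were measured, and 3 were called higher against wild type in each knockout group, Mmp2, Mmp7 and Mmp12. That is 33.3% of the 9, where 6.96% of all genes were called higher in Mdr2-KO/IL6-KO and 8.89% in Mdr2-KO. Mmp12 degrades elastin and is made mainly by macrophages. On the arrays it had a lowest value of 8.66, a median of 9.04 and a highest value of 9.5 in Mdr2-KO/IL6-KO, was 8.57, 8.64, 7.01, 8.91 and 8.86 in Mdr2-KO, and was 5.98, 6.56 and 6.49 in wild type. Every knockout array was above every wild-type array, and Mdr2-KO array 3 was the one low knockout array. Against wild type the limma fit gave a difference of 2.71 (SE 0.33, 6.53-fold, limma adjusted p = 0.000106) in Mdr2-KO/IL6-KO. It was 2.05 (SE 0.34, 4.15-fold, limma adjusted p = 0.000996) in Mdr2-KO, and 2.4 without Mdr2-KO array 3 or without both neutrophil-high arrays. Both calls of Mmp12 held in all 25 alternative settings. The mean signal of 14 macrophage markers was 8.4 to 8.69 in Mdr2-KO/IL6-KO, 8.27 to 8.64 in Mdr2-KO and 8.02 to 8.32 in wild type. Of these markers Gpnmb, Cd9, Ccr2, Lyz2 and Trem2 were called higher in Mdr2-KO/IL6-KO, and the first 4 of these in Mdr2-KO. Of the 14 markers, 9 were above 0 in Mdr2-KO/IL6-KO (median difference 0.26) and 8 in Mdr2-KO (median 0.11). Timd4, of resident macrophages, was called lower in both, calls that ended without any 1 of the wild-type arrays (adjusted p between 0.0584 and 0.125). The Timd4 call in Mdr2-KO/IL6-KO also ended without Mdr2-KO/IL6-KO array 4 or 6 or Mdr2-KO array 1 or 2 (between 0.0525 and 0.0777), and that in Mdr2-KO without Mdr2-KO array 1, 3 or 5 (between 0.0659 and 0.0768) or without the 2 neutrophil-high arrays (0.0663). Without wild-type array 1 the calls of Ccr2 (0.0519) and Trem2 (0.0536) in Mdr2-KO/IL6-KO and of Lyz2 in Mdr2-KO (0.0523) ended, as did Lyz2 in Mdr2-KO without wild-type array 2 (0.0528) and Ccr2 in Mdr2-KO/IL6-KO without wild-type array 3 (0.0666). The phagocyte marker Gpnmb was higher by 2.06 in Mdr2-KO/IL6-KO and by 1.59 in Mdr2-KO (limma adjusted p = 0.000471 and 0.00298). The part of macrophage number in the Mmp12 values was not tested, and in whole tissue a change in cells of a type and a change in RNA per cell cannot be told apart.

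Mmp7, or matrilysin, is a small protease of epithelia that cleaves proteoglycans, E-cadherin and defensin precursors. Measured per array, it had a lowest value of 6.3, a median of 7.55 and a highest value of 9.75 in Mdr2-KO/IL6-KO, was 8.13, 7.04, 6.92, 7.62 and 8.34 in Mdr2-KO, and was 6.13, 6.08 and 5.47 in wild type. The knockout arrays were above the wild-type arrays without overlap, but they spread widely, the highest being Mdr2-KO/IL6-KO array 2. Set against wild type, the difference was 1.92 (SE 0.53, limma adjusted p = 0.0257) in Mdr2-KO/IL6-KO and 1.72 (SE 0.54, limma adjusted p = 0.0361) in Mdr2-KO. Of the wild-type arrays, array 3 was under the background. Both calls held without the neutrophil-high arrays. The Mdr2-KO/IL6-KO call ended without wild-type array 1, 2 or 3 (adjusted p = 0.0595, 0.0567 and 0.112) and with trend and robust moderation (0.0645). The Mdr2-KO call ended without any wild-type array or without Mdr2-KO array 1, 4 or 5 (adjusted p between 0.0551 and 0.147), with all probes tested (0.0524) and with trend and robust moderation (0.0734). Beside these values, the mean signal of 10 cholangiocyte markers was 6.58 to 7.52 in Mdr2-KO/IL6-KO, 6.52 to 7.38 in Mdr2-KO and 5.77 to 6.33 in wild type, without overlap with wild type. Krt19, a keratin of bile duct epithelium, was higher by 1.16 in Mdr2-KO/IL6-KO and by 1.07 in Mdr2-KO (limma adjusted p = 0.00285 and 0.00487). The part of bile duct cells in the Mmp7 values was not tested.

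Mmp2, or gelatinase A, cleaves denatured collagen and type IV collagen of basement membranes. Its signal had a lowest value of 7.93, a median of 8.56 and a highest value of 9.15 in Mdr2-KO/IL6-KO, was 8.03, 7.75, 6.87, 7.93 and 8.38 in Mdr2-KO, and was 7.05, 6.95 and 6.81 in wild type. Every Mdr2-KO/IL6-KO array was above wild type, whereas Mdr2-KO array 3 lay among the wild-type arrays. The difference from wild type was 1.55 (SE 0.28, 2.93-fold, limma adjusted p = 0.00223) in Mdr2-KO/IL6-KO, a call that held in all 25 alternatives. In Mdr2-KO it was 0.85 (SE 0.29, 1.81-fold, limma adjusted p = 0.0499). That Mdr2-KO call held in 4 of the 14 fits that left out 1 array, and ended without Mdr2-KO/IL6-KO array 3, 5 or 6, Mdr2-KO array 1, 2, 4 or 5, or any wild-type array (adjusted p between 0.0557 and 0.163). It also ended under quantile normalization (0.0616), with all probes tested (0.0689), with trend and robust moderation (0.0807) and with only the 2 groups in the fit (0.0513). The mean signal of 12 stellate cell and fibroblast markers overlapped between the groups, at 7.63 to 7.88 in Mdr2-KO/IL6-KO, 7.3 to 7.88 in Mdr2-KO and 7.5 to 7.7 in wild type. Of the 12, Pdgfra, Pdgfrb and Tagln were called higher and Reln lower in Mdr2-KO/IL6-KO, with 6 above 0 and a median difference of 0.12. In Mdr2-KO the same 3 were called higher and Reln and Postn lower, with 5 above 0 and a median of -0.08. The Pdgfrb call in Mdr2-KO ended without wild-type array 1 (0.0914) or 3 (0.0954). Within that list Pdgfra, a growth factor receptor of fibroblasts, was higher by 0.82 in Mdr2-KO/IL6-KO and by 0.72 in Mdr2-KO (limma adjusted p = 0.000625 and 0.00167). Reln, a stellate cell marker, was lower by -0.47 in Mdr2-KO/IL6-KO, a call that ended in 9 of 14 fits that left out 1 array, without Mdr2-KO/IL6-KO array 2, 4 or 6, Mdr2-KO array 1, 2 or 4, or any wild-type array (adjusted p between 0.0522 and 0.138). In Mdr2-KO it was lower by -0.52 and the call ended without wild-type array 1 (0.065) or 3 (0.0855). Postn, a matrix protein of activated fibroblasts, was lower in Mdr2-KO by -0.67, a call that ended without Mdr2-KO array 2, 3 or 5 or any wild-type array (adjusted p between 0.0517 and 0.15) and without the 2 neutrophil-high arrays (0.0618). The part of these cells in the Mmp2 values was not tested.

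Mmp13 is the main interstitial collagenase of rodents. On the arrays it had a lowest value of 6.2, a median of 6.52 and a highest value of 9.51 in Mdr2-KO/IL6-KO, was 6.35, 6.28, 5.95, 6.77 and 5.71 in Mdr2-KO, and was 5.51, 5.28 and 5.4 in wild type. All knockout arrays were above all wild-type arrays, which lay at the background, and Mdr2-KO/IL6-KO array 5 was far above the rest. The difference from wild type did not pass the threshold in Mdr2-KO/IL6-KO (1.59, SE 0.53, limma adjusted p = 0.0616) or in Mdr2-KO (0.81, SE 0.54, limma adjusted p = 0.282). Without Mdr2-KO/IL6-KO array 5 both passed, at 1.08 (adjusted p = 0.0016) and 0.81 (0.00743). The first also passed when only the brightest genes were tested (0.0494), and the second with only the 2 groups in the fit (0.0187).

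The genes Mmp13, Mmp12, Mmp3, Mmp8 and Mmp7 lie within 427 kb of chromosome 9. Their promoters are shown because 2 of these neighbours were called higher against wild type in both knockout groups and Mmp13 was higher in every knockout array. Each line gives the 120 bases before a RefSeq start site on the plus strand of GRCm38.p6. Capitals mark TGANTCA, the core motif bound by AP-1, the Fos and Jun factors that carry many injury and cytokine signals to protease genes.
Mmp13, chr9:7272394-7272513: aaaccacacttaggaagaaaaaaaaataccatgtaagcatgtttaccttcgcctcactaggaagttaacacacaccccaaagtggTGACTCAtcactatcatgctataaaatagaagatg
Mmp12, chr9:7347254-7347373: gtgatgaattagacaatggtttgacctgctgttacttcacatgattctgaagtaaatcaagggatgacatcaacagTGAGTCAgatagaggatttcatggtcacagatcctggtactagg
Mmp3, chr9:7445702-7445821: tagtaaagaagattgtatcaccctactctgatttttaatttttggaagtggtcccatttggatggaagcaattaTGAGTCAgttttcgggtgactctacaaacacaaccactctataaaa
Mmp8, chr9:7558309-7558428: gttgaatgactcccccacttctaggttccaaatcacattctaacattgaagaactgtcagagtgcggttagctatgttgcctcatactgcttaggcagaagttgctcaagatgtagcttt
Mmp7, chr9:7691970-7692089: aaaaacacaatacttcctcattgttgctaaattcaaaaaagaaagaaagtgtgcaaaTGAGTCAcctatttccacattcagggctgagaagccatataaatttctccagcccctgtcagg
The motif is a palindrome, so both strands were searched at once. A match was found in 4 of these 5 genes, at position -35 from the start in Mmp13, -44 in Mmp12, -46 in Mmp3 and -63 in Mmp7, and there was none in Mmp8. Mmp12 and Mmp7 have 2 start sites each in the table, and the one with the match is shown. Over all 32851 promoter windows of the table, from 250 bases before to 50 bases after a start, 7.81% held the motif. In the list 24 of the genes had windows, 29 in all, and 5 windows (17.2%) held it, the fifth being that of Adam19 at position -131. TTCNNNGAA, the palindromic core motif of STAT factors, was found in 8.3% of all windows and in the list only in Mmp23 (TTCCTGGAA), in overlapping windows of 2 start sites. Mmp3, whose window holds the AP-1 motif, was under the background on every array.

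Mmp8 and Mmp9 are the collagenase and the gelatinase stored in neutrophil granules, and neither was called in any comparison. Mmp8 read 4.67, 7.08, 4.39, 4.39, 5.08 and 4.41 in Mdr2-KO/IL6-KO, 4.9, 4.54, 7.95, 4.69 and 4.31 in Mdr2-KO, and 4.8, 4.67 and 4.39 in wild type. Only Mdr2-KO/IL6-KO array 2 and Mdr2-KO array 3 were above the background, the same arrays in which neutrophil markers were highest. Mmp9 read 6.44, 7.38, 6.2, 6.45, 7.18 and 6.24 in Mdr2-KO/IL6-KO, 6.03, 5.89, 7.49, 6.33 and 6.58 in Mdr2-KO, and 5.93, 5.77 and 6.47 in wild type. It was highest of its group in the same arrays, with Mdr2-KO/IL6-KO array 5 next.

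The other secreted metalloproteinases were not called in any comparison. Mmp11, or stromelysin 3, a fibroblast protease, averaged 5.9 ± 0.08 in Mdr2-KO/IL6-KO, 5.7 ± 0.09 in Mdr2-KO and 5.64 ± 0.24 in wild type (SD), and wild-type array 3, at 5.92, was apart from the other wild-type arrays at 5.48 and 5.52. Its difference of 0.26 between Mdr2-KO/IL6-KO and wild type (limma adjusted p = 0.072) passed without that array (0.00607), under quantile normalization (0.0453) and with array weights (0.00592). Mmp19, which cuts basement membrane proteins, averaged 8.85 ± 0.23 in Mdr2-KO/IL6-KO, 9.02 ± 0.07 in Mdr2-KO and 9.01 ± 0.08 in wild type, with differences from wild type of -0.16 in Mdr2-KO/IL6-KO and 0.01 in Mdr2-KO. Mmp3, or stromelysin 1, was under the background on all arrays.

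**Figure D2:**
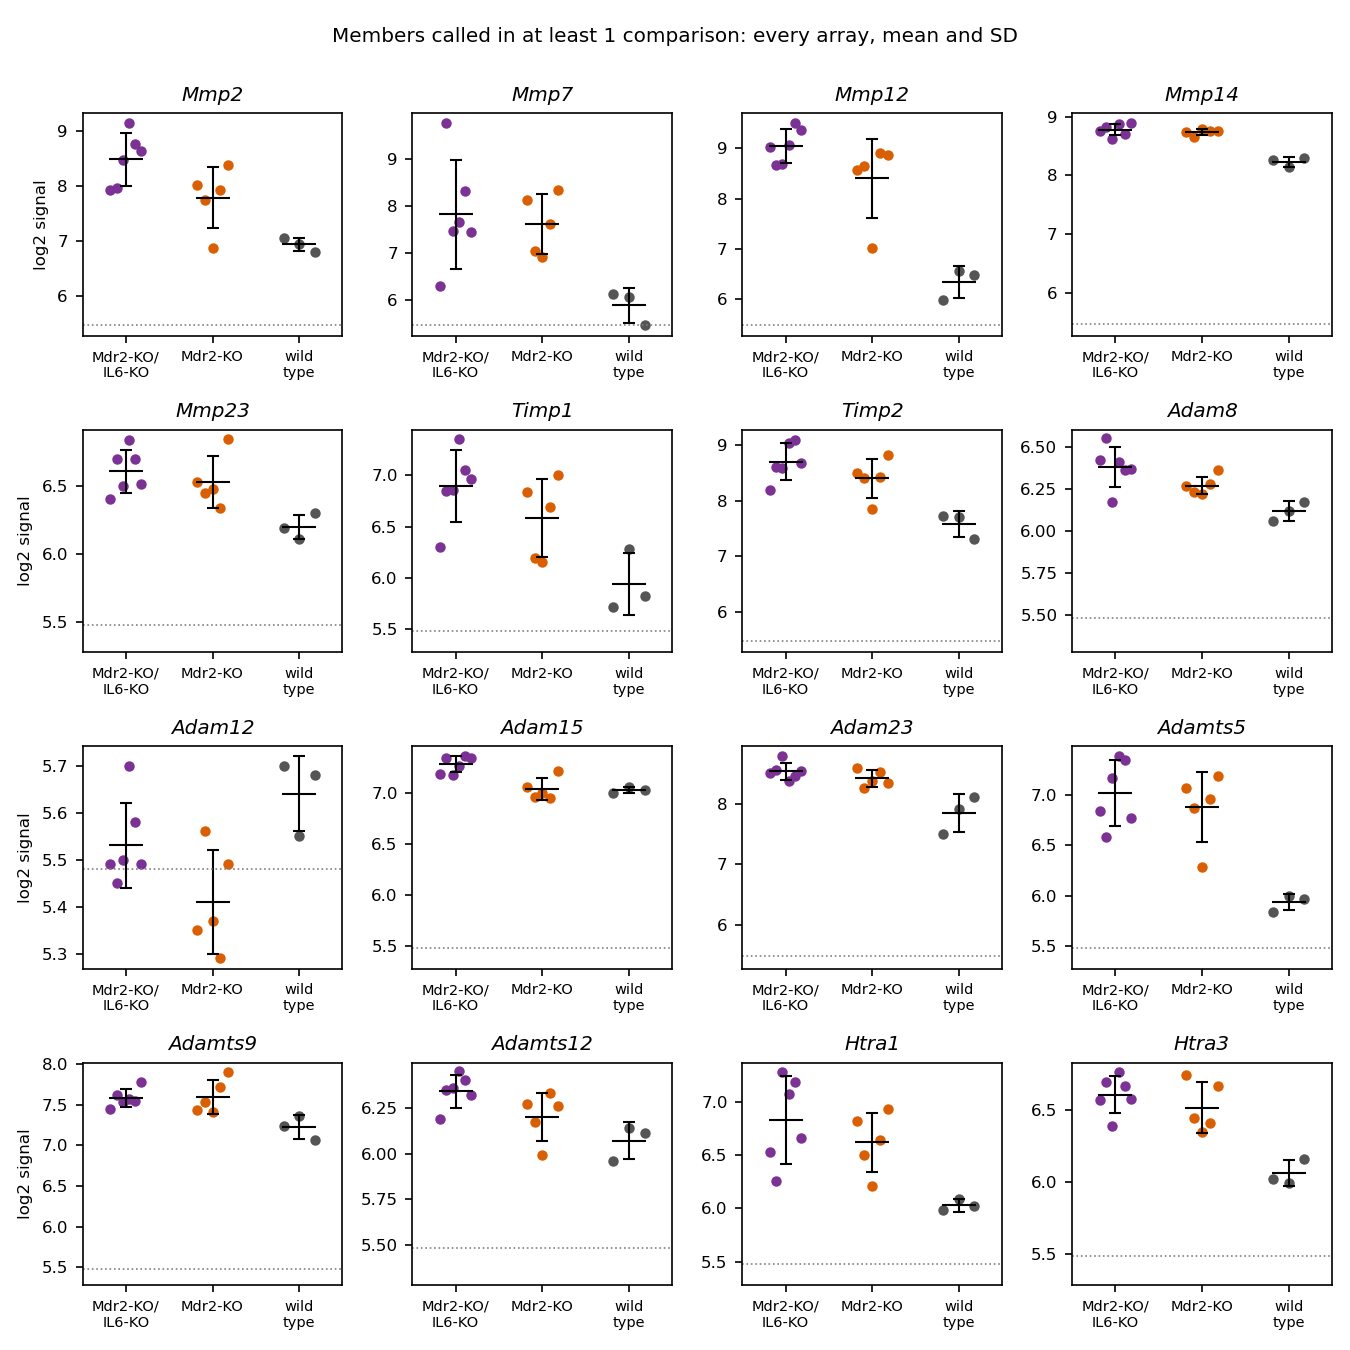
Log2 signal on each array (points, y axis) of the genes called in at least 1 comparison, with the mean (wide line), SD (error bar) and background level (dotted), for Mdr2-KO/IL6-KO, Mdr2-KO and wild type from left to right. Mmp12, Adamts5 and Mmp14 separate both knockout groups from wild type, whereas for Mmp2 1 Mdr2-KO array lies at the wild-type level.

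The membrane-bound metalloproteinases Mmp14 and Mmp23 were the 2 measured of 3 listed, and both were called higher in both knockout groups. Calls higher made up 6.96% of all genes in Mdr2-KO/IL6-KO and 8.89% in Mdr2-KO. Mmp14 activates the Mmp2 precursor at the cell surface together with Timp2. Measured per array, it had a lowest value of 8.62, a median of 8.78 and a highest value of 8.89 in Mdr2-KO/IL6-KO, was 8.74, 8.65, 8.79, 8.75 and 8.75 in Mdr2-KO, and was 8.26, 8.14 and 8.29 in wild type. The knockout arrays were close to each other and all above wild type, Mdr2-KO array 3 included. Against wild type the limma fit gave a difference of 0.55 (SE 0.07, 1.46-fold, limma adjusted p = 0.000134) in Mdr2-KO/IL6-KO and 0.51 (SE 0.07, 1.42-fold, limma adjusted p = 0.000283) in Mdr2-KO. Both calls of Mmp14 ended only where a change of at least 1.5-fold was also required.

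Mmp23 is a membrane-tethered metalloproteinase that lacks the usual C-terminal domain. Its signal had a lowest value of 6.41, a median of 6.61 and a highest value of 6.84 in Mdr2-KO/IL6-KO, was 6.53, 6.45, 6.48, 6.34 and 6.85 in Mdr2-KO, and was 6.19, 6.11 and 6.3 in wild type. The knockout arrays were above wild type by a narrow gap, which in Mdr2-KO was that between array 4 and wild-type array 3. Set against wild type, the difference was 0.41 (SE 0.11, limma adjusted p = 0.0204) in Mdr2-KO/IL6-KO and 0.33 (SE 0.11, limma adjusted p = 0.0457) in Mdr2-KO. The Mdr2-KO/IL6-KO call ended without wild-type array 1 or 2 (adjusted p = 0.0658 and 0.0824). The Mdr2-KO call held in 4 of 14 fits that left out 1 array, and ended without Mdr2-KO/IL6-KO array 2, 3, 5 or 6, Mdr2-KO array 1, 3 or 5, or any wild-type array (adjusted p between 0.051 and 0.115). It also ended without the 2 neutrophil-high arrays (0.0651), with all probes tested (0.0603) and with only the 2 groups in the fit (0.0675).

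All 5 listed inhibitors were measured. Timp1 and Timp2 were called higher in Mdr2-KO/IL6-KO, Timp2 was called higher in Mdr2-KO, and Timp3, Timp4 and Reck were not called. Those calls are 40% and 20% of the 5, where 6.96% and 8.89% of all genes were called higher. Timp2 inhibits metalloproteinases broadly and also forms the complex with Mmp14 that activates Mmp2. On the arrays it had a lowest value of 8.2, a median of 8.64 and a highest value of 9.1 in Mdr2-KO/IL6-KO, was 8.49, 8.41, 7.86, 8.43 and 8.82 in Mdr2-KO, and was 7.72, 7.7 and 7.31 in wild type. All knockout arrays were above wild type, with Mdr2-KO array 3 the lowest of them. The difference from wild type was 1.12 (SE 0.20, 2.18-fold, limma adjusted p = 0.00163) in Mdr2-KO/IL6-KO and 0.83 (SE 0.20, 1.77-fold, limma adjusted p = 0.011) in Mdr2-KO. The Mdr2-KO call ended only without wild-type array 3 (adjusted p = 0.0685), and the Mdr2-KO/IL6-KO call held in all 25 alternatives.

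Timp1 is the inducible member of its family and a common transcript marker of scarring liver. Measured per array, it had a lowest value of 6.3, a median of 6.91 and a highest value of 7.35 in Mdr2-KO/IL6-KO, was 6.84, 6.19, 6.16, 6.69 and 7 in Mdr2-KO, and was 5.72, 6.28 and 5.82 in wild type. Mdr2-KO/IL6-KO was above wild type on every array, with its array 1 level with wild-type array 2, while Mdr2-KO arrays 2 and 3 fell inside the wild-type range. Against wild type the limma fit gave a difference of 0.95 (SE 0.21, 1.93-fold, limma adjusted p = 0.00859) in Mdr2-KO/IL6-KO, a call that ended without wild-type array 1 (0.052). In Mdr2-KO it was 0.64 (SE 0.22, limma adjusted p = 0.0529) and not called. It passed without Mdr2-KO/IL6-KO array 1 or 4, Mdr2-KO array 2 or 3, or wild-type array 2 (adjusted p between 0.0315 and 0.0455). It also passed under quantile normalization (0.0446), median centring (0.0476), the brightest genes only (0.0478) and array weights (0.025), and without the 2 neutrophil-high arrays (0.0373). The 2 knockout groups differed by 0.32 (SE 0.18, limma adjusted p = 0.26, 95% confidence interval -0.07 to 0.71), so a call in one and not the other does not show that they differ.

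Timp3, an inhibitor bound to the matrix, averaged 8.98 ± 0.32 in Mdr2-KO/IL6-KO, 8.72 ± 0.45 in Mdr2-KO and 8.43 ± 0.24 in wild type (SD). Its difference of 0.55 between Mdr2-KO/IL6-KO and wild type (limma adjusted p = 0.122) passed with array weights (0.045). Reck, an inhibitor anchored in the cell membrane, averaged 6.98 ± 0.17 in Mdr2-KO/IL6-KO, 6.76 ± 0.17 in Mdr2-KO and 7.08 ± 0.18 in wild type. It was the only inhibitor with lower means in both knockout groups, by -0.10 in Mdr2-KO/IL6-KO (limma adjusted p = 0.643) and -0.32 in Mdr2-KO (limma adjusted p = 0.0637). The second passed without wild-type array 1 (0.0399) or Mdr2-KO array 5 (0.031).

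Timp4, the inhibitor best known from heart and fat, was high in the neutrophil-high arrays. It read 5.61, 8.68, 5.24, 4.94, 5.45 and 5.5 in Mdr2-KO/IL6-KO, 5.06, 5.33, 8.57, 4.96 and 4.77 in Mdr2-KO, and 5.17, 5.21 and 5.46 in wild type. Only Mdr2-KO/IL6-KO array 2 and Mdr2-KO array 3 were clearly above the background, and Timp4 was not called in any comparison. Whether its signal in these arrays came from the cells that carried the neutrophil markers was not tested.

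**Figure D3:**
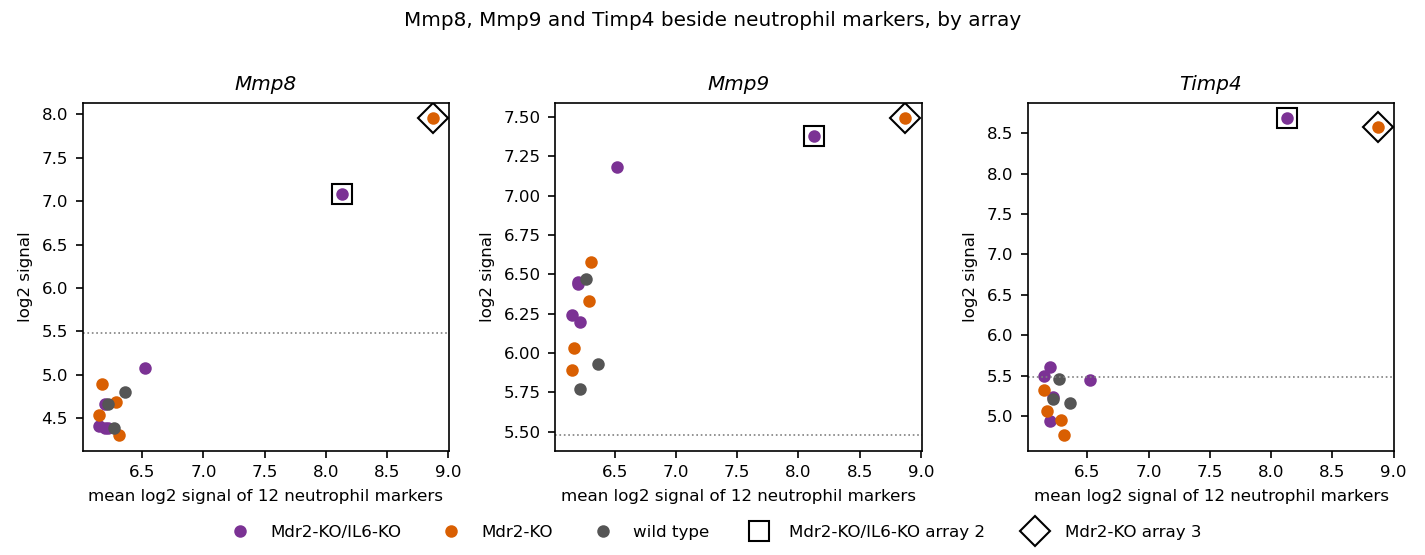
Log2 signal of Mmp8, Mmp9 and Timp4 (y axes) against the mean log2 signal of 12 neutrophil markers (x axis), 1 point per array, with the background level dotted. Mdr2-KO/IL6-KO array 2 and Mdr2-KO array 3, at marker means of 8.13 and 8.87, hold the highest Mmp8, Mmp9 and Timp4 signals of their groups.

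Among the membrane ADAM proteins all 8 were measured, and 3 were called higher in Mdr2-KO/IL6-KO, against 1 higher and 1 lower in Mdr2-KO. These are 37.5% higher in Mdr2-KO/IL6-KO, where 6.96% of all genes were, and 12.5% higher and 12.5% lower in Mdr2-KO, where 8.89% and 12.1% of all genes were, so the Mdr2-KO counts lie near those of all genes. Adam23 lacks protease activity and binds integrins and LGI proteins, for which it is known from the nervous system. Its signal had a lowest value of 8.38, a median of 8.53 and a highest value of 8.79 in Mdr2-KO/IL6-KO, was 8.59, 8.26, 8.38, 8.53 and 8.34 in Mdr2-KO, and was 7.51, 7.92 and 8.12 in wild type. All knockout arrays were above wild type and lay closer together than the wild-type arrays did. Set against wild type, the difference was 0.69 (SE 0.12, 1.61-fold, limma adjusted p = 0.00141) in Mdr2-KO/IL6-KO and 0.57 (SE 0.12, 1.48-fold, limma adjusted p = 0.00516) in Mdr2-KO. The first call held in all 25 alternatives, and the second ended only where a change of at least 1.5-fold was required.

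Adam8, a protease of leukocytes, and Adam15, a disintegrin of endothelium and epithelium, were called higher in Mdr2-KO/IL6-KO with small differences. Adam8 had a lowest value of 6.17, a median of 6.39 and a highest value of 6.55 in Mdr2-KO/IL6-KO, was 6.27, 6.23, 6.22, 6.28 and 6.36 in Mdr2-KO, and was 6.06, 6.12 and 6.17 in wild type. The arrays were separated from wild type only by hundredths of a unit, Mdr2-KO/IL6-KO array 3 being level with wild-type array 3. The Adam8 difference from wild type was 0.26 (SE 0.07, limma adjusted p = 0.0265) in Mdr2-KO/IL6-KO and 0.15 (limma adjusted p = 0.141) in Mdr2-KO. The Adam8 call ended without wild-type array 1 or 2 (adjusted p = 0.109 and 0.0656), under median centring (0.0538), with only the 2 groups (0.0613) and without the 2 neutrophil-high arrays (0.0525). Under quantile normalization the Mdr2-KO difference in Adam8 passed as well (0.21, adjusted p = 0.0446).

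Adam15 had a lowest value of 7.18, a median of 7.31 and a highest value of 7.37 in Mdr2-KO/IL6-KO, was 7.06, 6.96, 7, 6.95 and 7.22 in Mdr2-KO, and was 7, 7.06 and 7.03 in wild type. Every Mdr2-KO/IL6-KO array was above wild type, and Mdr2-KO lay around the wild-type values except for its array 5. The difference from wild type was 0.25 (SE 0.07, 1.19-fold, limma adjusted p = 0.0283) in Mdr2-KO/IL6-KO and 0.01 (limma adjusted p = 0.948) in Mdr2-KO. The first call ended without wild-type array 1, 2 or 3 (adjusted p = 0.0962, 0.0571 and 0.0761), without Mdr2-KO/IL6-KO array 2 or 5 (0.0539 and 0.0515), without the 2 neutrophil-high arrays (0.0597), under quantile normalization (0.0508) and under median centring (0.0554).

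Adam12, a protease of myoblasts and activated stellate cells, was the one listed gene called lower, in Mdr2-KO. It had a lowest value of 5.45, a median of 5.5 and a highest value of 5.7 in Mdr2-KO/IL6-KO, was 5.35, 5.56, 5.37, 5.29 and 5.49 in Mdr2-KO, and was 5.7, 5.55 and 5.68 in wild type. The groups overlapped and lay at the background, under which 3 of the 5 Mdr2-KO arrays fell. Against wild type the limma fit gave a difference of -0.23 (SE 0.08, limma adjusted p = 0.0445) in Mdr2-KO and -0.11 (limma adjusted p = 0.415) in Mdr2-KO/IL6-KO. The call held in 5 of 14 fits that left out 1 array. It ended without Mdr2-KO/IL6-KO array 1, 3, 5 or 6, Mdr2-KO array 1, 3 or 4, or wild-type array 1 or 3 (adjusted p between 0.0501 and 0.142), and without the 2 neutrophil-high arrays (0.081). It also ended under quantile normalization (-0.12, adjusted p = 0.203), with all probes (0.0545), with trend and robust moderation (0.0506) and with only the 2 groups (0.0884).

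The other ADAM genes were not called. Adam9, Adam10 and Adam17 encode broadly expressed sheddases, Adam10 for Notch and Adam17 for tumour necrosis factor and ligands of the epidermal growth factor receptor. Adam9 averaged 9.69 ± 0.07 in Mdr2-KO/IL6-KO, 9.82 ± 0.08 in Mdr2-KO and 9.85 ± 0.05 in wild type (SD), and every Mdr2-KO/IL6-KO array was below wild type (-0.16, limma adjusted p = 0.131). It was the only listed gene with that separation, which 6.56% of all genes showed. Adam10 averaged 8.67 ± 0.12 in Mdr2-KO/IL6-KO, 8.8 ± 0.11 in Mdr2-KO and 8.65 ± 0.19 in wild type. Adam17 averaged 8.48 ± 0.15 in Mdr2-KO/IL6-KO, 8.4 ± 0.14 in Mdr2-KO and 8.56 ± 0.12 in wild type. Adam19, a sheddase of neuregulins, averaged 6.47 ± 0.11 in Mdr2-KO/IL6-KO, 6.41 ± 0.09 in Mdr2-KO and 6.47 ± 0.2 in wild type. Differences from wild type in Adam10, Adam17 and Adam19 were between -0.15 and 0.15 in both knockout groups.

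Of the secreted ADAMTS proteases 5 of 6 listed were measured, and 3 were called higher in Mdr2-KO/IL6-KO and 2 in Mdr2-KO. These are 60% and 40% of the 5, where 6.96% and 8.89% of all genes were called higher. Adamts5 is a principal aggrecan- and versican-cutting enzyme. On the arrays it had a lowest value of 6.58, a median of 7.01 and a highest value of 7.39 in Mdr2-KO/IL6-KO, was 7.07, 6.87, 6.29, 6.96 and 7.19 in Mdr2-KO, and was 5.84, 6 and 5.97 in wild type. All knockout arrays were above the tight wild-type group, with Mdr2-KO array 3 the nearest to it. Set against wild type, the difference was 1.08 (SE 0.19, 2.12-fold, limma adjusted p = 0.00172) in Mdr2-KO/IL6-KO and 0.94 (SE 0.20, 1.92-fold, limma adjusted p = 0.00439) in Mdr2-KO. Both calls held in all 25 alternatives, which in Mdr2-KO was true of Adamts5 and Mmp12 only. Adamts1, its neighbour on chromosome 16 and also a proteoglycan-cutting enzyme, averaged 7.4 ± 0.2 in Mdr2-KO/IL6-KO, 7.21 ± 0.06 in Mdr2-KO and 7.11 ± 0.09 in wild type. Its difference of 0.29 between Mdr2-KO/IL6-KO and wild type (limma adjusted p = 0.07) passed without Mdr2-KO/IL6-KO array 4 (0.0408) or 5 (0.0311).

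Adamts9 is a proteoglycan-cutting enzyme found near the cell surface, with a part in the small vessels. Measured per array, it had a lowest value of 7.45, a median of 7.56 and a highest value of 7.78 in Mdr2-KO/IL6-KO, was 7.44, 7.53, 7.41, 7.72 and 7.9 in Mdr2-KO, and was 7.24, 7.36 and 7.07 in wild type. The knockout arrays were above wild type by a narrow gap and overlapped each other. The difference from wild type was 0.36 (SE 0.11, limma adjusted p = 0.0366) in Mdr2-KO/IL6-KO and 0.38 (SE 0.11, limma adjusted p = 0.0247) in Mdr2-KO. The Mdr2-KO/IL6-KO call ended without Mdr2-KO/IL6-KO array 2, 4 or 6 or wild-type array 1 or 3 (adjusted p between 0.0568 and 0.172), without the 2 neutrophil-high arrays (0.052), under quantile normalization (0.0518), median centring (0.0562) and with all probes (0.0595). The Mdr2-KO call ended without wild-type array 1 (0.0577) or 3 (0.13) or Mdr2-KO array 4 (0.054), with the mean of the gene's probes (0.0635) and with only the 2 groups (0.0605).

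Adamts12, which degrades cartilage oligomeric matrix protein, had a lowest value of 6.19, a median of 6.36 and a highest value of 6.45 in Mdr2-KO/IL6-KO, was 6.27, 6.17, 5.99, 6.33 and 6.26 in Mdr2-KO, and was 5.96, 6.14 and 6.11 in wild type. Mdr2-KO/IL6-KO was above wild type on every array and Mdr2-KO overlapped it through array 3. Against wild type the limma fit gave a difference of 0.28 (SE 0.08, limma adjusted p = 0.0323) in Mdr2-KO/IL6-KO and 0.14 (limma adjusted p = 0.239) in Mdr2-KO. The Adamts12 call ended without Mdr2-KO/IL6-KO array 2, 3, 4 or 5 or wild-type array 1 or 3 (adjusted p between 0.0521 and 0.154), under median centring (0.0521) and with all probes (0.0502). Adamts4, an aggrecanase, averaged 6 ± 0.08 in Mdr2-KO/IL6-KO, 5.84 ± 0.19 in Mdr2-KO and 5.8 ± 0.19 in wild type and was not called.

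Htra1 and Htra3 are secreted serine proteases that cut fibronectin and proteoglycans, and both bind members of the TGF-beta family. Htra1 had a lowest value of 6.26, a median of 6.86 and a highest value of 7.28 in Mdr2-KO/IL6-KO, was 6.82, 6.5, 6.21, 6.64 and 6.93 in Mdr2-KO, and was 5.98, 6.09 and 6.02 in wild type. All knockout arrays were above wild type, and the lowest were the neutrophil-high array of each group. The Htra1 difference from wild type was 0.80 (SE 0.20, 1.74-fold, limma adjusted p = 0.0156) in Mdr2-KO/IL6-KO and 0.59 (SE 0.21, limma adjusted p = 0.0534) in Mdr2-KO. The Mdr2-KO/IL6-KO call in Htra1 ended without wild-type array 1 (0.0608) or 3 (0.0556). The Mdr2-KO difference in Htra1 passed without Mdr2-KO/IL6-KO array 2 (0.0299), 3 (0.0439) or 5 (0.0499) or Mdr2-KO array 3 (0.0292). Without both neutrophil-high arrays it was 0.69 (0.0115). It also passed under quantile normalization (0.0436), median centring (0.0485), the brightest genes only (0.0482), array weights (0.0359) and with only the 2 groups (0.0197).

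Htra3 had a lowest value of 6.39, a median of 6.63 and a highest value of 6.77 in Mdr2-KO/IL6-KO, was 6.75, 6.45, 6.35, 6.41 and 6.67 in Mdr2-KO, and was 6.02, 5.99 and 6.16 in wild type. All knockout arrays were above wild type and the knockout groups overlapped. Set against wild type, the difference was 0.56 (SE 0.10, limma adjusted p = 0.00171) in Mdr2-KO/IL6-KO and 0.47 (SE 0.10, limma adjusted p = 0.00541) in Mdr2-KO, and both calls ended only where a change of at least 1.5-fold was required. Bmp1, which removes the C-terminal propeptide of fibrillar procollagens, averaged 9.54 ± 0.1 in Mdr2-KO/IL6-KO, 9.6 ± 0.13 in Mdr2-KO and 9.78 ± 0.25 in wild type (SD). It was not called, with differences from wild type of -0.24 (limma adjusted p = 0.155) and -0.18 (limma adjusted p = 0.22). Without wild-type array 2, the lowest of its group, both passed as lower (adjusted p = 0.0319 and 0.0417).

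Livers lacking both genes and livers lacking Mdr2 alone were also set against each other, groups that by their labels differ in IL6. Strain was not given and Il6 was under the background, so a difference here cannot be assigned to IL6 loss. Of the 32 genes only Adam15 was called, higher in Mdr2-KO/IL6-KO by 0.25 (SE 0.06, limma adjusted p = 0.0232, 95% confidence interval 0.12 to 0.38), and its groups overlapped through Mdr2-KO array 5. This is 3.12% of the list, where 5.04% of all genes were called higher, 3.72% lower and 8.76% in either direction. At an unadjusted p under 0.05, 7 of the 32 were higher and 1 lower, a split that became 3 and 1 under quantile normalization and 4 and 3 under median centring. The arrays of the 2 groups separated completely for none of the 32, against 4.4% of all genes higher and 2.94% lower, or 7.34% in all. The median difference was 0.15 over the list, 26 of the 32 being above 0, and 0.06 over all genes. Of all genes 1005 were called higher and 741 lower, a split that became 675 and 852 under quantile normalization and 424 and 1056 under median centring. The Adam15 call ended without Mdr2-KO array 1 (adjusted p = 0.0507), 3 (0.0555) or 4 (0.0587), without Mdr2-KO/IL6-KO array 5 (0.0517), under median centring (0.0505) and without the 2 neutrophil-high arrays (0.0957). The count was 2 without wild-type array 3, with Mmp11 at 0.0385, and without Mdr2-KO array 5, with Mmp2 at 0.0438.

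The genes with the largest differences from wild type are not shown to be alike in the 2 knockouts. Mmp2 differed between them by 0.70 (95% confidence interval 0.18 to 1.21, limma adjusted p = 0.0797), with a lower value in Mdr2-KO array 3 than in any other knockout array. Without that array the Mmp2 difference was 0.47. Mmp12 differed by 0.65 (95% confidence interval 0.05 to 1.25, limma adjusted p = 0.142), and by 0.3 without Mdr2-KO array 3. Mmp13 differed by 0.77 (95% confidence interval -0.18 to 1.73, limma adjusted p = 0.26), and by 0.27 without Mdr2-KO/IL6-KO array 5. For Mmp7 the interval of the difference, -0.75 to 1.17, holds changes as large as a doubling. Narrow intervals were found for Mmp14 (-0.09 to 0.16), Adamts9 (-0.21 to 0.18) and Htra3 (-0.09 to 0.27).

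Across the 16 genes called in some comparison, Mdr2-KO array 3 held the lowest value of its group for 11 and Mdr2-KO array 5 the highest for 10. Within Mdr2-KO/IL6-KO, array 1 was lowest for 7 and array 4 highest for 7. Without the 2 neutrophil-high arrays, 12 listed genes were called higher in Mdr2-KO/IL6-KO than in wild type, 11 were called higher in Mdr2-KO than in wild type, and none was called between the knockouts (limma). In the same setting 1227 of all 19938 genes were called higher and 917 lower in Mdr2-KO/IL6-KO, and 1616 higher and 1958 lower in Mdr2-KO. Of the listed genes between the knockouts, 5 had an unadjusted p under 0.05.

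Other genes of matrix turnover were read from lists chosen by function, also with earlier results known. Up to 3 called genes of largest change per list and comparison are named. None of 11 further matrix metalloproteinases was called in any comparison (limma), and 6 of them had a mean under the background. At an unadjusted p under 0.05 none of these 11 differed in Mdr2-KO/IL6-KO, and 3 were lower in Mdr2-KO. Of 25 further ADAM, ADAMTS, ADAMTS-like and tolloid genes, 3 were higher and 2 lower in Mdr2-KO/IL6-KO, and 2 higher and 4 lower in Mdr2-KO. In either direction these are 20% and 24%, where 12.3% and 21% of all genes were called. The Mdr2-KO share thus lies near that of all genes, and 9 of the 25 had a mean under the background. Adam11, a family member without protease activity, was higher by 0.90 in Mdr2-KO/IL6-KO and by 0.84 in Mdr2-KO (limma adjusted p = 0.00172 and 0.00284). Adamdec1, a secreted relative of the ADAM proteins made by macrophages, was lower by -1.09 in Mdr2-KO/IL6-KO and by -1.19 in Mdr2-KO (limma adjusted p = 0.0285 and 0.0152). Its Mdr2-KO/IL6-KO call ended without Mdr2-KO/IL6-KO array 1 or 4 or wild-type array 2 or 3 (adjusted p between 0.052 and 0.0974), and its Mdr2-KO call without wild-type array 3 (0.0622). Adamts7, which cuts cartilage oligomeric matrix protein, was higher by 0.79 in Mdr2-KO/IL6-KO (limma adjusted p = 0.00502), and Adamtsl2, a matrix protein that binds fibrillin, was higher by 0.57 in Mdr2-KO (limma adjusted p = 0.00286). Between the knockouts Adamts7 and the tolloid-like protease Tll2 were called higher in Mdr2-KO/IL6-KO, by 0.48 and 0.21 (limma adjusted p = 0.0451 and 0.0443). They are 8% of the 25, where 5.04% of all genes were called higher. Tll2 averaged 5.29 over all arrays, under the background. Both calls ended without the 2 neutrophil-high arrays (0.165 and 0.146) and in 10 of the 14 fits that left out 1 array. Those 10 fits left out any Mdr2-KO/IL6-KO array, Mdr2-KO array 1, 3 or 4, or wild-type array 1 for Adamts7 (adjusted p between 0.0505 and 0.115), and for Tll2 the same but with Mdr2-KO array 5 in place of Mdr2-KO/IL6-KO array 4 (between 0.0543 and 0.108).

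In the plasminogen system, of which 6 of 8 listed genes were measured, tissue plasminogen activator (Plat) was higher by 1.13 in Mdr2-KO/IL6-KO (SE 0.18, limma adjusted p = 0.00073). In Mdr2-KO it was higher by 0.63 (limma adjusted p = 0.0236), a call that ended without wild-type array 1 or 3 or Mdr2-KO array 4 (adjusted p between 0.0534 and 0.0909). The plasminogen receptor gene Plgrkt was called higher in Mdr2-KO by 0.41 (limma adjusted p = 0.0474) and ended in 9 of 14 fits that left out 1 array, with Mdr2-KO/IL6-KO array 1, 2, 3, 4 or 6, Mdr2-KO array 1, 4 or 5, or wild-type array 3 left out (adjusted p between 0.0526 and 0.285).

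Among 17 cathepsin and cystatin genes, 5 were higher in Mdr2-KO/IL6-KO and none was called lower, where 3 were lower at an unadjusted p under 0.05, and 4 were higher and 2 lower in Mdr2-KO (limma). The calls in either direction are 29.4% and 35.3% of the 17, where 12.3% and 21% of all genes were called. Cstb, a cytosolic inhibitor of cathepsins, was higher by 0.95 in Mdr2-KO/IL6-KO and by 0.81 in Mdr2-KO (limma adjusted p = 1.3e-05 and 5.66e-05). Cathepsin D (Ctsd), a lysosomal aspartic protease, was higher by 0.47 in Mdr2-KO/IL6-KO (limma adjusted p = 0.00596). Cathepsin K (Ctsk), a collagen-degrading cysteine protease, was called higher in Mdr2-KO/IL6-KO by 0.49 (limma adjusted p = 0.0406). Its call ended without Mdr2-KO/IL6-KO array 2, 3, 4 or 6, Mdr2-KO array 2 or any wild-type array (adjusted p between 0.051 and 0.128). Cathepsin S (Ctss), a protease of antigen-presenting cells, was called higher in Mdr2-KO by 0.50 (limma adjusted p = 0.0275), and ended without wild-type array 3 (0.181) or Mdr2-KO array 1 (0.052) or 4 (0.0613). Cst3, the secreted cystatin C, was lower by -0.45 in Mdr2-KO (limma adjusted p = 0.00183). Between the knockouts Cst3 was higher in Mdr2-KO/IL6-KO by 0.43 (limma adjusted p = 0.00228), as was cathepsin H (Ctsh) by 0.29 (limma adjusted p = 0.0101), and both had every Mdr2-KO/IL6-KO array above every Mdr2-KO array. They are 11.8% of the 17, where 5.04% of all genes were called higher and 4.4% separated in this way.

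Of 19 helper and other inhibitor genes, 3 were higher and 2 lower in Mdr2-KO/IL6-KO, and 3 were higher and 3 lower in Mdr2-KO. In either direction these are 26.3% and 31.6%, where 12.3% and 21% of all genes were called. Htra4, a relative of Htra1 and Htra3, was lower, by -0.94 in Mdr2-KO/IL6-KO and -1.08 in Mdr2-KO (limma adjusted p = 6.35e-05 and 2.58e-05). Tfpi2, a secreted inhibitor of serine proteases, was lower by -0.80 in Mdr2-KO/IL6-KO and by -0.49 in Mdr2-KO (limma adjusted p = 0.00102 and 0.0201), the second ending without wild-type array 3 (0.09). Thrombospondin 1 (Thbs1), a matrix protein that activates latent TGF-beta, was higher by 0.79 in Mdr2-KO/IL6-KO (limma adjusted p = 0.00579). Tmprss6, a membrane serine protease of hepatocytes that lowers hepcidin, was higher by 0.52 in Mdr2-KO (limma adjusted p = 0.00275) and was lower in Mdr2-KO/IL6-KO than in Mdr2-KO, by -0.32 (limma adjusted p = 0.0275). The second Tmprss6 call ended without Mdr2-KO/IL6-KO array 5 (0.0594), Mdr2-KO array 1 (0.0617), 3 (0.0662) or 4 (0.0545), or the 2 neutrophil-high arrays (0.0949).

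Among 20 substrates of these proteases, 9 were higher in Mdr2-KO/IL6-KO and 6 in Mdr2-KO, and none was called lower in either (limma), with 1 lower in each at an unadjusted p under 0.05. The calls higher are 45% and 30% of the 20, where 6.96% and 8.89% of all genes were called higher. The proteoglycan lumican (Lum) was higher by 1.89 in Mdr2-KO/IL6-KO and by 2.10 in Mdr2-KO (limma adjusted p = 4.57e-05 and 2.44e-05). Nidogen 1 (Nid1), a basement membrane linker, was higher by 1.20 in Mdr2-KO/IL6-KO and by 0.80 in Mdr2-KO (limma adjusted p = 7.53e-05 and 0.00176). The laminin chain Lama2 was higher by 0.81 in Mdr2-KO/IL6-KO (limma adjusted p = 0.0017), and the collagen chain Col6a3 by 0.61 in Mdr2-KO (limma adjusted p = 0.0236), a call that ended without wild-type array 1 (0.064) or 3 (0.11) or Mdr2-KO array 4 (0.0519). Between the knockouts the collagen chains Col4a1 and Col5a1 were each higher in Mdr2-KO/IL6-KO by 0.20 (limma adjusted p = 0.0453 and 0.0403). They are 10% of the 20, where 5.04% of all genes were called higher. The Col4a1 call ended without Mdr2-KO/IL6-KO array 1, 2, 4, 5 or 6, Mdr2-KO array 1, 3, 4 or 5, or wild-type array 1 (adjusted p between 0.0526 and 0.112). The Col5a1 call ended without Mdr2-KO/IL6-KO array 1, 2, 3, 4 or 5 or Mdr2-KO array 1, 3 or 4 (adjusted p between 0.0529 and 0.0966). Both also ended under quantile normalization and under median centring (adjusted p between 0.0587 and 0.115), and without the 2 neutrophil-high arrays (0.17 for Col4a1 and 0.118 for Col5a1).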

How the data were processed

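Total RNA of 14 liver samples was hybridised as biotinylated cRNA to Affymetrix mouse gene arrays. The deposited table holds log2 values that the authors made with Partek and RMA, per the submitters' processing notes. The sources used here give no versions, filters or pooling. No 2 arrays shared more than 0.062% of their values. The labels give no batch.

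Of 35557 probes, 21789 have 1 gene, 1621 several and 12147 none in the array annotation, and 21698 were matched by gene identifier. Each of 19938 genes was read from its single-gene probe of highest mean, which was a choice for 999 genes. The authors' normalization was kept. limma 3.58.1 (R 4.3.3) fitted 3 group means over all 14 arrays, with empirical Bayes moderation. Its 2-sided test was adjusted by Benjamini-Hochberg over the 19938 genes, and genes were called at an adjusted p under 0.05. The procedure was tested on simulated data, drawn independently for each array with the same spread of a gene in every group. Outlying arrays and shifts of a whole array were not simulated. Precision rests on 6, 5 and 3 arrays and on signal over background, under which 29% of genes had their mean. Python 3.11.15 and matplotlib 3.10.9 read the tables and drew the plots.

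The genes, the other lists and the alternatives were chosen with earlier results of these data known. All 34 genes are accounted for, and every gene called in some comparison has its values given. Of the other lists, up to 3 called genes of largest change per comparison are named. The marker genes given by name, and the values of each array for Mmp8, Mmp9, Mmp13 and Timp4, were chosen after they were seen. Promoter sequences are from RefSeq (GRCm38.p6). Alternatives were quantile normalization, median centring, the brightest genes only, averaging the probes of a gene, all probes tested as separate rows, trend and robust moderation, array weights, only the 2 groups compared, a 1.5-fold minimum, each array left out, and wild-type array 2 with Mdr2-KO array 3 left out. Leaving out the 2 neutrophil-high arrays together was added after the data were seen.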

Additional observations from a re-analysis of the deposited data

Results flagged for a closer look

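Of 64 sets of 5 or 6 arrays, each 1 gene in 1 knockout group, 7 held a single array far from the others of its group by Dixon's test. Chance alone flags about 1 in 20 such sets. Mdr2-KO/IL6-KO array 2 was high for Mmp8 (7.08, the others 4.39 to 5.08) and for Timp4 (8.68, the others 4.94 to 5.61). Mdr2-KO array 3 was high for Mmp8 (7.95, the others 4.31 to 4.9), Timp4 (8.57, the others 4.77 to 5.33) and Bmp1 (9.83, the others 9.5 to 9.57), and low for Mmp12 (7.01, the others 8.57 to 8.91). Mdr2-KO/IL6-KO array 5 was high for Mmp13 (9.51, the others 6.2 to 6.75).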

How the results depend on the processing

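Of 2391 values of the listed genes under 25 alternatives, 2227 kept their side of the threshold, and their direction where called, 121 lost a call, 43 gained one and none reversed while called. The sign changed in 54 that were not called under either setting. For the other genes named, 242 values lost a call, 1651 kept their side of the threshold and none reversed. Apart from Abcb4, these genes were counted only in comparisons that called them in the main fit, so they could not gain a call. Requiring a 1.5-fold change left 8 listed genes for Mdr2-KO/IL6-KO over wild type, 5 for Mdr2-KO over wild type and 0 for the knockouts compared with each other, and over all genes 748, 799 and 150. With all probes tested, 7 listed genes were called in Mdr2-KO against wild type, and 2944 probes between the knockouts. Between the knockouts the count of listed genes was 0 under median centring, 2 with only these groups, and 0 without wild-type array 2 and Mdr2-KO array 3 or without the neutrophil-high arrays, where the limma counts over all genes were 970 and 687. At an unadjusted p under 0.05 these 3 settings with 0 calls had 7, 4 and 5 listed genes, and the 1.5-fold setting 8. Leaving out 1 array gave 7 to 15, 5 to 12 and 0 to 2 listed genes in these 3 comparisons, and 1635 to 2544, 2140 to 4507 and 754 to 2164 over all genes. The count over all genes in Mdr2-KO against wild type was 2140 without wild-type array 3. Between the knockouts it was 1055 and 1045 without Mdr2-KO/IL6-KO array 4 or 5, and 754, 932 and 999 without Mdr2-KO array 1, 3 or 4. The 0 listed genes there came without Mdr2-KO/IL6-KO array 5 or Mdr2-KO array 1, 3 or 4. A stricter rule calls fewer genes by construction, and for the other shifts the cause was not tested. No paired analysis was possible because the labels give the arrays no replicate number shared between groups. Genes near the background of 5.48, among them Mmp3, Mmp8, Mmp13 and Adam12, may have larger differences than these signals show.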
